A study of Rattus norvegicus with 6 samples.

Results

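The transforming growth factor beta (TGF-beta) genes examined here were 10 members chosen by symbol, of 22081 genes in the deposited table: the ligands Tgfb1, Tgfb2 and Tgfb3, the receptors Tgfbr1, Tgfbr2 and Tgfbr3, the latent binding protein Ltbp1, the matrix protein Tgfbi, and the Smads Smad3 and Smad7. All 10 were found, and all 10 passed the filter on low counts that left 15367 genes. The RNA was that of 3 intracranial aneurysms, unruptured but taken as rupture-prone, and of what was left of the circle of Willis in those 3 rats, which makes a pair of libraries per animal. The rats were female Sprague Dawley, 10 weeks old when bought by the study's methods. All had both ovaries removed, a left carotid, a right external carotid, a right pterygopalatine and a left renal artery ligated, and a diet with 8% salt and 0.12% 3-aminopropionitrile, which blocks lysyl oxidase. The control arteries therefore carried the same operations and diet, and no artery of an untreated rat was compared. The tissue was taken on day 63 by the labels and the RNA methods, whereas the animal methods name day 56. Each library was made from 1 lesion or 1 remaining circle of Willis, and lesions lay at the anterior or the posterior communicating artery, without the labels saying which.

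TGF-beta ligands are secreted in a latent form, held by their own propeptide and tied to the matrix by latent binding proteins such as LTBP1, until integrins, thrombospondin or proteinases release them. The free ligand binds TGFBR2, which recruits and phosphorylates TGFBR1, and TGFBR1 phosphorylates SMAD2 and SMAD3, which enter the nucleus with SMAD4. SMAD7 is induced by the pathway and blocks it at the receptor, and the coreceptor betaglycan, encoded by Tgfbr3, presents ligand and matters most for TGF-beta 2. In human arteries the pathway is known from Loeys-Dietz syndrome, in which variants of ligand, receptor or Smad genes of this pathway lead to arterial aneurysms.

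No member passed an adjusted p under 0.05 in the edgeR quasi-likelihood fit blocked on animal, which called 0 of 15367 genes (0%). Tgfb2 and Tgfb1 had higher values in the lesion than in the artery of every animal, 2 of 10 members where 22.6% of all genes did. Tgfbr3, Tgfbr2 and Smad3 had lower values in the lesion of every animal, 3 of 10 where 27% of all genes did, and both shares lie near those of all genes. The values of Tgfb3, Tgfbr1, Tgfbi, Ltbp1 and Smad7 went different ways in different animals. The ratio of Tgfbr1 to Tgfbr2 within a library was higher in the lesion of each animal by nearly the same amount.

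The genes lie on 8 rat chromosomes, and none overlapped another gene of the table, so that no count was shared with an overlapping gene. In Rnor6, the build of the files, Tgfb2 (ENSRNOG00000002418) lies on the minus strand of chromosome 13 from 105039853 to 105141030 and Tgfb1 (ENSRNOG00000020652) on the plus strand of chromosome 1 from 82480195 to 82497199. Tgfbr1 (ENSRNOG00000007036) lies on chromosome 5 from 63050758 to 63119635 and Tgfbr2 (ENSRNOG00000013265) on chromosome 8 from 124312754 to 124399494. The sequences shown are from RefSeq on the build GRCr8, in which all 10 members had a promoter window of 300 bases, 250 before the gene's start and 50 after. The first is shown because Tgfb2 was the only member over 1.5-fold higher in each animal, and it gives the 250 bases before the start, chr13:100792686-100792935 on the minus strand. Its capitals mark CACGTG, the palindromic E-box, 229 bases before the start, a motif searched after the sequence had been seen. The second is a stretch of the Ltbp1 promoter, chr6:26177383-26177412 on the minus strand, in which the capitals mark the reverse complement of CAGAC, letters that Smad proteins bind, with its first base 99 bases before the start.
Tgfb2: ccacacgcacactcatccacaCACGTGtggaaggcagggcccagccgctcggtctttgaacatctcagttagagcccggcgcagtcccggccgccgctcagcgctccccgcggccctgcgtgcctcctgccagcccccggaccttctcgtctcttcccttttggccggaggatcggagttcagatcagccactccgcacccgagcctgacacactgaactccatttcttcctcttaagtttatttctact
Ltbp1: gcctgacgtcacGTCTGccgcagattggct
CAGAC, searched on both strands, was in the window of 1 of the 10 members, Ltbp1, and in 50.1% of 33469 rat promoter windows of the same length. The Smad palindrome, GTCT followed directly by AGAC, was in none of the 10 windows and in 0.197% of all windows. The E-box was in 1 of the 10, Tgfb2, and in 6.42% of all windows. The palindrome shares the letters AGAC with CAGAC but cannot hold CAGAC on either strand, and a match is a run of letters, not a measured binding site.

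Total counts per library were 65823027 to 70705938, and the members had 1255 to 22490 counts each, so that counting error was small beside the differences between animals. The control arteries carried markers of their label, with a summed TPM (a level scaled by gene length and to the same total in each library) of 8 smooth muscle markers between 4981.4 and 14561.8 and of 5 endothelial markers between 654.5 and 733.7. The smooth muscle sum was 6565.8, 8170.1 and 2962.8 TPM in the lesions of animals 1, 2 and 3, and the macrophage sum over 9 markers was 1078.7, 2076.6 and 5283.0 against 666.6 to 801.9 in the control arteries. Gpnmb, a gene of lipid-laden macrophages, gave 403.1, 628.2 and 2805.8 TPM of it, Cd163 was lower in each animal, and the median log2 ratio over the list was -0.07, 1.3 and 1.58. The fibroblast sum over 6 markers was 937.1, 6171.4 and 4172.9 TPM against 980.3 to 1384.6. Col1a1 (3604.9 and 2952.7 TPM in the lesions of animals 2 and 3) and Postn (1730.3 and 477.5 TPM) carried it. Dcn was lower in each animal at log2 ratios of -0.40, -0.37 and -0.78, and Pdgfra had -0.62, -0.81 and 0.07. Lum, at 0.12, 0.54 and 1.06, and Dpt, at 0.58, 1.0 and 0.97, were higher in each. The median log2 ratio over the fibroblast list was 0.27, 0.77 and 1.02 in animals 1, 2 and 3. Markers of brain were unequal too. The lesion of animal 2 had a choroid plexus sum (Ttr, Kl and Folr1) of 13080.2 TPM against 47.3 to 241.0 in the other 5 libraries and a myelin sum of 3717.8 against 54.4 to 350.7. The astrocyte sum was 612.2 and 582.4 TPM in the lesions of animals 2 and 3 against 77.1 to 202.6 in the other 4 libraries. Gfap gave 590.8 and 550.9 TPM of it in those lesions. Aqp4 had log2 ratios of 0.24, 0.85 and 0.66 in animals 1, 2 and 3, and Aldh1l1 had -0.19, -1.29 and 0.68. The neuron sum was 3.3 to 12.4 TPM in the lesions and 5.08 to 51.2 TPM in the control arteries. In bulk RNA fewer cells of a type and less RNA per cell cannot be told apart. Their part in the members' values was not tested, and each result is given by animal so that any animal can be set aside.

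Among the ligands, Tgfb1 was the main isoform of the lesions and Tgfb2 the rarest in both tissues. Tgfb1, the isoform made by most immune and vascular cells, had 97.2, 135.3 and 169.2 TPM in the lesions of animals 1, 2 and 3 and 90.7, 69.8 and 82.2 TPM in their circle of Willis. All 3 lesions lay above all 3 control arteries, narrowly so in animal 1. On the scale of TMM-normalized CPM (counts scaled by library size and made comparable between libraries, with a prior count of 2 in each log2 ratio) Tgfb1 had a mean within-animal log2 ratio of 0.72 (standard error, SE, 0.25, n = 3, edgeR adjusted p = 0.206), with 0.22, 0.89 and 1.04 in animals 1, 2 and 3. Animals 2 and 3, with the larger ratios, were also those with the higher macrophage sums in the lesion, and the log2 ratios of that sum were 0.43, 1.64 and 2.75. Platelets are another known source of TGF-beta 1, and their summed markers had log2 ratios of -0.16, 2.83 and 1.85. Pf4 gave 113.1 of 114.0 TPM of the sum in the lesion of animal 3. In that animal Itga2b had a log2 ratio of 0.22 and Gp9, with 5 counts in the lesion, -1.21. In animal 2 Itga2b and Gp9 had 1.98 and 3.29, and the part of platelets in the Tgfb1 values was not tested.

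Tgfb2, an isoform of mesenchymal and neural cells, had 10.8, 27.6 and 16.5 TPM in the lesions of animals 1, 2 and 3 and 6.83, 6.79 and 8.91 TPM in the circle of Willis. The groups did not overlap, and the lesion of animal 2 was the highest. The ratios of normalized CPM were 1.72, 3.9 and 1.86, and the mean log2 ratio was 1.21 (SE 0.38, n = 3, edgeR adjusted p = 0.183), the largest of the 10 members. Without animal 2 the mean log2 ratio of Tgfb2 was 0.84, and it was 1.46 without animal 1 and 1.37 without animal 3. The lesion of animal 2 had the highest choroid plexus, myelin, astrocyte, fibroblast, platelet and neutrophil sums. S100a8 and S100a9 gave 139.6 and 226.3 of 391.5 TPM of its neutrophil sum. In that animal Csf3r and Cxcr2 had log2 ratios of 3.71 and 4.04, and Mpo, below 1 TPM in every library, had -1.15. Aldh1l1 of the astrocyte list was lowest in that lesion, at 1.44 TPM. The part of the cell types of these sums in the Tgfb2 values was not tested.

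Tgfb3, an isoform of smooth muscle and other mesenchymal cells, went different ways, with 56.2, 103.4 and 70.4 TPM in the lesions and 70.3, 58.2 and 130.0 TPM in the control arteries, in the order of animals 1, 2 and 3. The groups overlapped, and the circle of Willis of animal 3 was the highest library. Its log2 ratios were -0.20, 0.77 and -0.88, with a mean of -0.11 (standard error 0.48), and without animal 3 the mean was 0.28. The summed smooth muscle markers had log2 ratios of the same signs, -0.42, 0.71 and -2.30. The median over the smooth muscle list was -0.24, 0.26 and -2.51. In animal 2 its members differed, with Acta2 at 0.92 and Tagln at 0.61 but Myh11 at -0.49 and Lmod1 at -0.52. The part of smooth muscle in the Tgfb3 values was not tested.

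**Figure D1:**
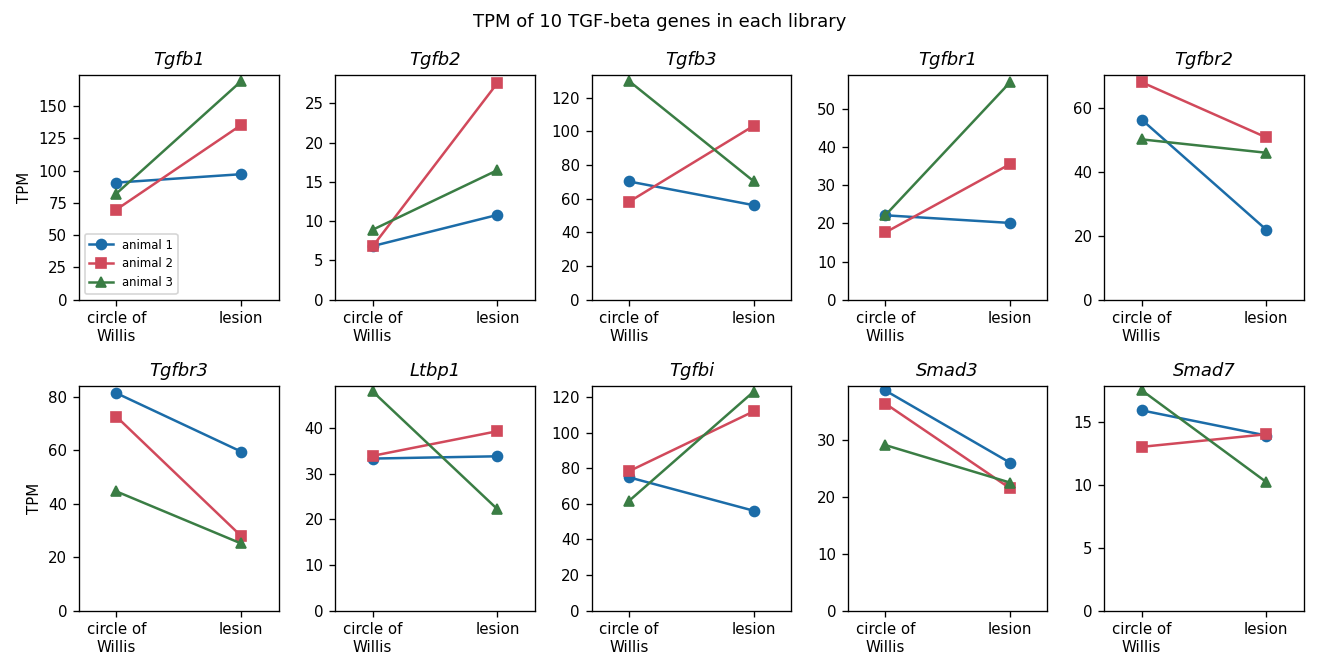
TPM of each of the 10 members (vertical axes, each from 0) in the circle of Willis and the lesion of animals 1, 2 and 3, with a line joining the 2 libraries of an animal. All 3 lines go up for Tgfb1 and Tgfb2 and down for Tgfbr2, Tgfbr3 and Smad3, and for Tgfb3 the lines of animals 2 and 3 cross.

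The make-up of the ligand pool does not depend on how libraries are scaled to each other, because it is a share within a library. Of the summed TPM of the 3 ligands, Tgfb2 held 6.57%, 10.4% and 6.46% in the lesions of animals 1, 2 and 3 and 4.07%, 5.04% and 4.03% in the circle of Willis, so that every lesion lay above every control artery. The difference was 3.42 percentage points (standard error 0.955, higher in 3 of 3 animals, two-sided exact permutation test within animals, p = 0.25). That is the smallest p that the 8 exchanges of lesion and artery within 3 animals allow, so that this design cannot reach 0.05.
Tgfb3 held 34.2%, 38.8% and 27.5% in the lesions, beside 41.9%, 43.2% and 58.8% in the circle of Willis. Every lesion lay below every control artery, although the TPM of Tgfb3 itself was higher in the lesion of animal 2. The mean difference was -14.4 percentage points (standard error 8.48, lower in 3 of 3 animals, same exact permutation test, p = 0.25). Animal 3 carried most of it, at -31.3 points beside -7.66 and -4.37 in animals 1 and 2, and without animal 3 the mean was -6.02. Tgfb1 held 59.2%, 50.8% and 66.1% in the lesions, beside 54.0%, 51.8% and 37.2% in the circle of Willis, and its share was lower by less than 1 percentage point in the lesion of animal 2 (exact permutation test, p = 0.5). Its difference was 5.17, -0.955 and 28.9 points in animals 1, 2 and 3, and the mean without animal 3 was 2.11.

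**Figure D2:**
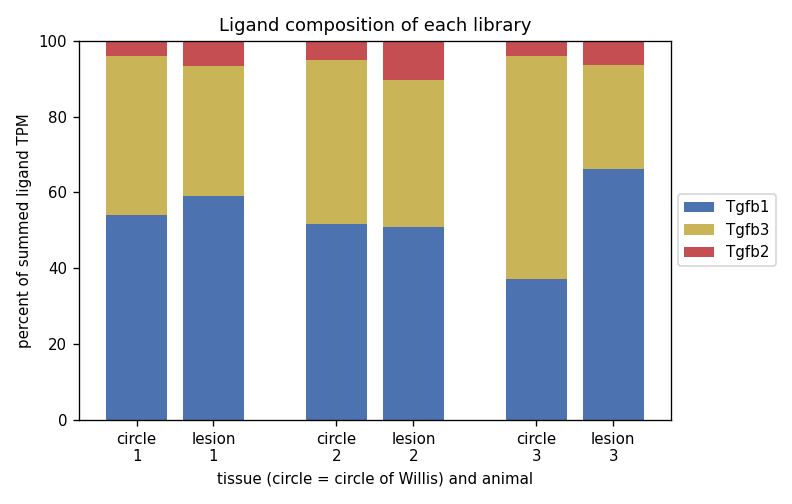
Share of Tgfb1, Tgfb3 and Tgfb2 in the summed ligand TPM of each library (percent), with the circle of Willis beside the lesion of the same animal. The Tgfb2 part is larger in each lesion, from 4.03% to 5.04% in the circle of Willis and from 6.46% to 10.4% in the lesions, and the Tgfb3 part is smaller.

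The receptors went apart from each other. Tgfbr1, the type I receptor kinase that phosphorylates SMAD2 and SMAD3, had 20.1, 35.5 and 56.9 TPM in the lesions of animals 1, 2 and 3 and 22.1, 17.6 and 22.1 TPM in the circle of Willis. The lesion of animal 1 lay among the control arteries and the other lesions lay above them. The log2 ratios were -0.02, 0.95 and 1.37, with a mean of 0.77 (SE 0.41, edgeR adjusted p = 0.246).
Tgfbr2, the type II receptor that binds the ligand first, had 21.9, 50.8 and 46.0 TPM in the lesions and 56.4, 68.1 and 50.2 TPM in the circle of Willis. It was lowest in the lesion of animal 1, and the groups overlapped by a small margin in TPM but not in normalized CPM. The log2 ratios were -1.24, -0.48 and -0.12, with a mean of -0.61 (SE 0.33, edgeR adjusted p = 0.254). TGFBR2 is present in endothelial cells among others, and the summed endothelial markers had log2 ratios of -0.18, -1.21 and -1.38. Cldn5 gave 372.5 of 579.8 TPM of that sum in the lesion of animal 1, and its log2 ratios were 0.01, -1.35 and -1.86. The median over the endothelial list had another order of animals, at -0.09, -1.35 and -0.44. The part of endothelial cells in the Tgfbr2 values was not tested.
Tgfbr3, the coreceptor betaglycan, had 59.5, 27.9 and 25.1 TPM in the lesions and 81.4, 72.6 and 44.6 TPM in the circle of Willis. Each lesion lay below the artery of its own animal, but the lesion of animal 1 lay above the circle of Willis of animal 3, so that the groups overlapped. The log2 ratios were -0.33, -1.44 and -0.83, with a mean of -0.87 (SE 0.32, edgeR adjusted p = 0.206), the lowest of the 10 members. The summed meningeal markers (Ptgds, Slc47a1, Slc6a13 and Aldh1a2) had log2 ratios of -0.30, -2.21 and -1.81 in the same order of animals. Ptgds gave 106871.5 of 107872.7 TPM of that sum in the lesion of animal 1. The median over the meningeal list was -0.34, -1.84 and -1.28, with Slc6a13 at 0.08 in animal 1. The part of meningeal cells in the Tgfbr3 values was not tested.

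The ratio of Tgfbr1 to Tgfbr2 was higher in the lesion of each animal. In TPM the ratio was 0.92, 0.70 and 1.24 in the lesions of animals 1, 2 and 3 and 0.39, 0.26 and 0.44 in the circle of Willis, and every lesion lay above every control artery. In animal 1 the shift came from a lower Tgfbr2 at a like Tgfbr1, and in animal 3 from a higher Tgfbr1 at a like Tgfbr2. On the log2 scale the lesion was higher by 1.22, 1.43 and 1.49 in animals 1, 2 and 3, a mean of 1.38 (standard error 0.08, higher in 3 of 3 animals, two-sided exact permutation test within animals, p = 0.25, the smallest possible). The ratio of Tgfbr3 to Tgfbr2 had no common direction, with log2 differences of 0.91, -0.96 and -0.71 (exact permutation test, p = 0.75).

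**Figure D3:**
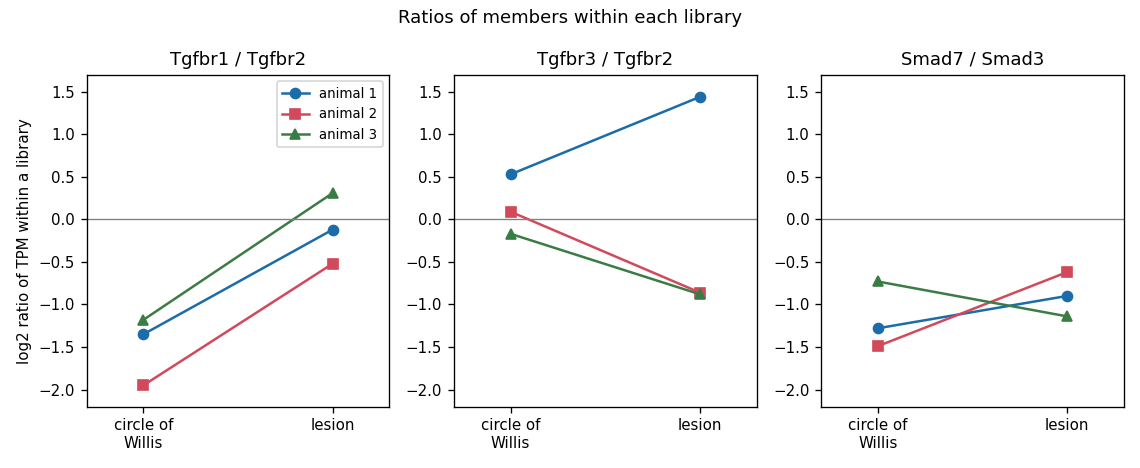
Log2 ratio of the TPM of 2 members within each library (vertical axis) in the circle of Willis and in the lesion, for Tgfbr1 over Tgfbr2, Tgfbr3 over Tgfbr2 and Smad7 over Smad3, with a line for each of 3 animals. The 3 lines of Tgfbr1 over Tgfbr2 run nearly parallel, up by 1.22, 1.43 and 1.49, while the lines of the other 2 ratios cross or part.

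Of the Smads, Smad3 was lower in each lesion and Smad7 was not. Smad3, the receptor-activated Smad that binds DNA, had 26.0, 21.5 and 22.5 TPM in the lesions of animals 1, 2 and 3 and 38.7, 36.4 and 29.1 TPM in the circle of Willis, without overlap. Its log2 ratios of -0.45, -0.82 and -0.37 gave a mean of -0.55 with the smallest standard error of the 10 members (0.14, edgeR adjusted p = 0.200). Smad7, the feedback inhibitor, had 13.9, 14.0 and 10.2 TPM in the lesions and 15.9, 13.0 and 17.5 TPM in the circle of Willis, which overlapped, with a mean log2 ratio of -0.27 (standard error 0.25). The log2 ratio of Smad7 to Smad3 within a library was higher in the lesion by 0.38 and 0.87 in animals 1 and 2 and lower in animal 3, at -0.40 (exact permutation test, p = 0.75).

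The matrix members had no common direction. Ltbp1, which ties latent TGF-beta to the matrix, had 33.8, 39.3 and 22.2 TPM in the lesions of animals 1, 2 and 3 and 33.3, 33.9 and 48.0 TPM in the circle of Willis. Only animal 3 stood out, with a log2 ratio of -1.11 against 0.15 and 0.15 in animals 1 and 2, and without animal 3 the mean was 0.15 instead of -0.27 (standard error 0.42). Tgfbi, a secreted matrix protein named for its induction by TGF-beta, had 56.1, 112.0 and 123.1 TPM in the lesions and 74.9, 78.3 and 61.6 TPM in the circle of Willis. The lesion of animal 1 was the lowest library and the lesions of animals 2 and 3 were the highest, and the mean log2 ratio was 0.39 (SE 0.38, edgeR adjusted p = 0.446).

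**Figure D4:**
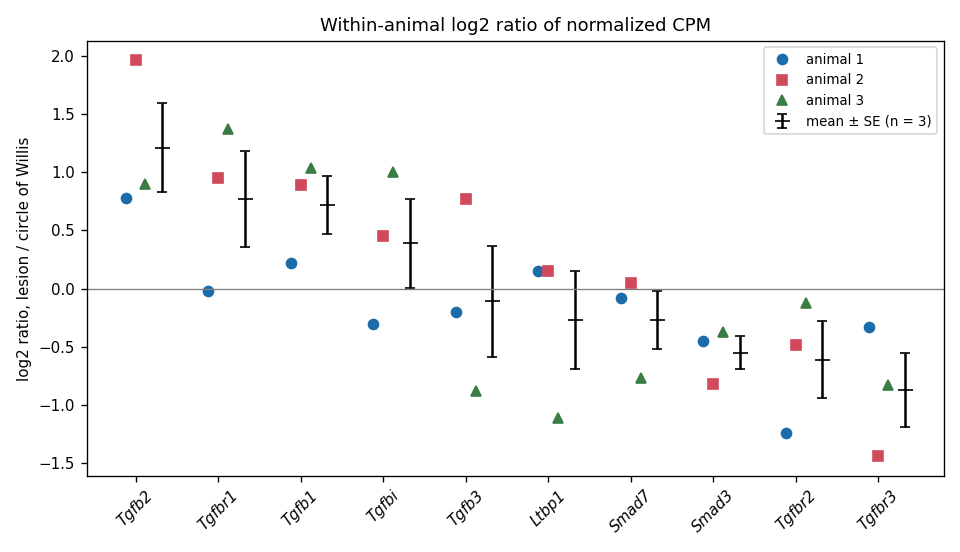
Within-animal log2 ratio of normalized CPM, lesion over circle of Willis (vertical axis), for the 10 members in order of their mean, with a point for each of 3 animals and the mean ± standard error beside them. Tgfb2 is at the top with a mean of 1.21 and Tgfbr3 at the bottom with -0.87, and the points of Tgfb3, Ltbp1, Smad7, Tgfbi and Tgfbr1 lie on both sides of 0.

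Counted together, members were found on both sides. Tgfb2 alone was over 1.5-fold higher in each of 3 animals (2.75% of all genes tested were) and none was over 1.5-fold lower in each (5.51% of all genes). These counts were also 1 and 0 without animal 2, where 587 of all 15367 genes were higher and 1491 lower. They were 3 and 1 without animal 1, when Tgfb1 and Tgfbr1 joined Tgfb2 and Tgfbr3 was the lower one. Of all 15367 genes, 1646 were then higher and 1922 lower. In normalized CPM the lesions and control arteries did not overlap for 2 higher members, Tgfb1 and Tgfb2 (10.3% of all genes), and for 2 lower ones, Tgfbr2 and Smad3 (11.6% of all genes), of which Smad3 alone was without overlap in TPM. By an edgeR p under 0.05 without adjustment, 2 members were higher (8.63% of all genes, Tgfb1 and Tgfb2) and 2 lower (12% of all genes, Tgfbr3 and Smad3). DESeq2 with the same block called Tgfb1 and Tgfb2 higher (adjusted p = 0.0324 and 0.00277, where 5.48% of all genes were called higher) and Tgfbr3 lower (adjusted p = 0.0297, where 6.5% were called lower), and limma-voom called none of the 10. The median of the members' mean log2 ratios was -0.19, beside -0.03 over all genes tested, and it was 0.11 without animal 3 and -0.42 without animal 2.

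Within the circle of Willis the order of the levels by mean TPM was Tgfb3 (86.2 ± 38.5, SD, n = 3), Tgfb1 (80.9 ± 10.5), Tgfbi (71.6 ± 8.85), Tgfbr3 (66.2 ± 19.2) and Tgfbr2 (58.2 ± 9.09), and the ranges of neighbours among these 5 overlapped. Ltbp1 and Smad3 followed at 38.4 ± 8.32 and 34.7 ± 5.05 TPM, with overlapping ranges, and then Tgfbr1, Smad7 and Tgfb2 at 20.6 ± 2.59, 15.5 ± 2.31 and 7.51 ± 1.21 TPM, each below the one before without overlap. In the lesions Tgfb1 came first at 133.9 ± 36.0 TPM and Tgfbi next at 97.1 ± 35.9 TPM. The 3 receptors there lay close together, with Tgfbr2 at 39.6 ± 15.5, Tgfbr1 at 37.5 ± 18.5 and Tgfbr3 at 37.5 ± 19.1 TPM, where in the circle of Willis Tgfbr1 had lain below the other receptors without overlap. Tgfb2, at 18.3 ± 8.55 TPM, was no longer the lowest, as Smad7 had 12.7 ± 2.14 TPM with an overlapping range.

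The other genes of the pathway, 72 tested of 76 listed, are given by role, and no test compared the lists with each other. At an edgeR p under 0.05 without adjustment, 22 of them were higher (8.63% of all genes were) and 8 lower (12%), and edgeR called 0 at an adjusted p under 0.05. DESeq2 called 20 higher (5.48% of all genes) and 3 lower (6.5%). Over 1.5-fold in each of 3 animals, 9 were higher (2.75% of all genes) and 1 lower (5.51%). Without animal 1 these counts were 25 and 6, where 1646 of all 15367 genes were higher and 1922 lower. Without animal 2 the second count was 2, where 1491 of all 15367 genes were lower.

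Among genes of the latent complex and of activation, the highest mean log2 ratio was that of Ltbp2, at 3.13. Ltbp2, a relative of LTBP1 that binds fibrillin but not latent TGF-beta, had 41.5, 198.9 and 159.5 TPM in the lesions of animals 1, 2 and 3 and 8.41, 13.1 and 18.5 TPM in the circle of Willis. Its log2 ratios of 2.42, 3.86 and 3.11 stand beside 0.15, 0.15 and -1.11 for Ltbp1, and the other latent binding proteins had means of 0.05 for Ltbp3 and -0.76 (standard error 0.42) for Ltbp4. Bmp1, a proteinase that cleaves procollagen and latent binding protein, had log2 ratios of 0.66, 1.19 and 1.05. Ltbp2 and Bmp1 were the 2 of 15 genes over 1.5-fold higher in each animal (2.75% of all genes), none was lower (5.51%), and the median was 0.42. Of the 5 coreceptors and other receptors, none passed the fold rule in either direction, and the endothelial coreceptor Eng and its partner Acvrl1 had means of 0.04 and 0.03. Bmpr2, the type II receptor of bone morphogenetic proteins, was lower in each animal as Tgfbr2 was, at -0.61, -0.54 and -0.42.

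Of 12 Smads and partners, 7 were lower and 1 higher in each of 3 animals at any size (27% and 22.6% of all genes were), none passed the fold rule, and the median was -0.32. Smad2, which acts beside Smad3, had a mean log2 ratio of 0.07 (standard error 0.11). Smad4, the partner of both, had -0.76, -0.24 and -0.38 in animals 1, 2 and 3. Zfyve9, also called SARA, which brings SMAD2 and SMAD3 to the receptor, had -0.55, -0.73 and -0.63. The gene higher in each animal was the corepressor Tgif1, at 0.43, 1.59 and 1.33.

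Of 9 inhibitors outside the cell and at the receptor, 3 were over 1.5-fold higher in each animal (2.75% of all genes) and none was lower (5.51%). Bgn, the proteoglycan biglycan, which binds TGF-beta, had log2 ratios of 0.60, 2.38 and 1.18, and Pmepa1, a membrane protein induced by TGF-beta that sequesters Smads, had 0.65, 2.62 and 0.81. Fst, the activin antagonist follistatin, had 1.56, 1.33 and 1.24. The related proteoglycans Dcn and Fmod lay the other way, with means of -0.52 (standard error 0.13) and -1.10 (standard error 0.39), and the median of the inhibitors was 0.12.

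The genes known to respond to TGF-beta had more higher than lower values. They were listed with earlier results of these data known, so that their shares are no test of a response to TGF-beta. Their median log2 ratio was 0.20, 1.68 and 0.97 in animals 1, 2 and 3, beside 0.00, -0.05 and -0.04 over all genes tested. Of 31 tested, 19 were higher (22.6% of all genes) and 1 lower (27%) in each animal at any size. Over 1.5-fold in each, 4 were higher (2.75% of all genes), Postn, Comp, Cdkn2b and Nox4, and 1 was lower (5.51%), Timp3. Postn, the fibroblast matrix protein periostin, had a mean log2 ratio of 5.78, the cartilage matrix protein Comp 3.82, the cell cycle inhibitor Cdkn2b 2.49 and the NADPH oxidase Nox4 2.45, whereas Timp3, a proteinase inhibitor, had -1.52 (standard error 0.21). Of this list Acta2, Tagln and Cnn1 are also smooth muscle markers, and Col1a1 and Postn are also the fibroblast markers that carried that sum, so that the sum is no separate measure beside this list. Of the fibroblast markers that are not in it, Dcn and Pdgfra had log2 ratios of -0.37 and -0.81 in animal 2. Lum and Dpt had 0.54 and 1.0 there. With animal 2 left out the median over the list was 0.52 against 1.11 with all animals, and without animal 1 it was 1.56. Without animal 1 the number over 1.5-fold higher was 17, where 1646 of all 15367 genes were.

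**Figure D5:**
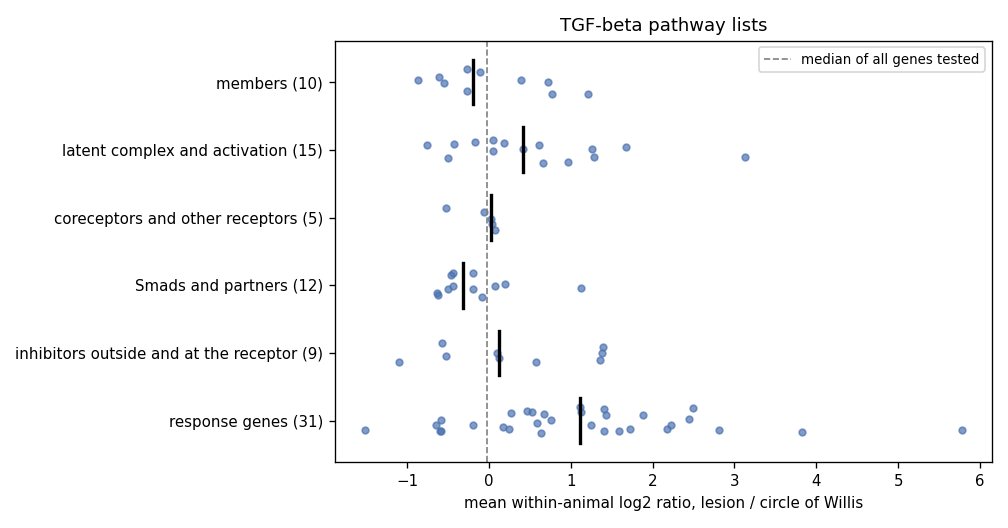
Mean within-animal log2 ratio, lesion over circle of Willis (horizontal axis), of each gene tested in the members and in 5 other pathway lists, with the number of genes in brackets. Points are genes, black bars are list medians and the dashed line is the median of all 15367 genes tested, at -0.03, and the response genes have the highest median, 1.11, and the Smads and partners the lowest, -0.32.

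The genes whose 3 within-animal log2 ratios lay nearest to those of Tgfb2, the member with the smallest p, were named by their Euclidean distance over the 3 animals, a description with no test. Mgp, the matrix Gla protein that hinders calcification, was nearest at a distance of 0.154, with log2 ratios of 0.83, 2.09 and 0.95. It was followed by Orc1, a replication origin protein at a low level (0.157), Pparg, the nuclear receptor of fat cells and macrophages (0.293), Pqlc3 (0.303) and Upk3bl (0.318). In all, 24 of 15366 genes lay within a distance of 0.5 of Tgfb2.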

How the data were processed

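Polyadenylated RNA of 3 lesions and 3 remaining circles of Willis was sequenced by the authors in pairs of 75 bases with a stranded kit and mapped to Rnor6 in CLC genomics workbench (version 11). CASAVA is also listed in the submitters' processing notes. The table deposited by the authors holds raw counts, RPKM and TPM of 22081 genes per library. The ligand shares were also taken from RPKM, which differs from TPM by a constant within a library. Those shares could not differ from the TPM ones, so that they are no check on them. The table's scaled CPM and the authors' own comparisons (fold changes and p-values) were not used. The strand setting of the counting was not found in the labels or methods.

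The deposited counts were tested with edgeR (version 4.0.16, R version 4.3.3) (glmQLFit, then glmQLFTest) after filterByExpr and TMM scaling, blocked on the animal, and adjusted by Benjamini-Hochberg over 15367 genes. DESeq2 (version 1.42.0) and limma-voom (limma version 3.58.1) were alternatives, with other scalings, filters and each animal left out. Members were rows of this fit. Pairing comes from the animal in the labels, and the deviations of an animal's 2 libraries from their group means correlated across genes at 0.389, 0.300 and 0.0688 in animals 1, 2 and 3. Standard errors come from 3 within-animal ratios with a prior count of 2.

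The members and lists were chosen with earlier results of these data known. Named were all members, Smad2 and Smad4, up to 3 genes of a list over 1.5-fold higher and 3 lower in each animal, and the 5 genes nearest to the member with the smallest p. Ltbp3, Ltbp4, Eng, Acvrl1, Bmpr2, Zfyve9, Tgif1, Dcn, Fmod and Nox4 were chosen after their values were seen. A further gene of the rule is not reported here. Of 76 pathway genes, Itgb5 and Col1a2 were not analysed here, and Foxh1 and Hmga2 did not pass the filter. The marker genes Pecam1, Col1a2, Gp1bb and Cd5 were not analysed here.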

Additional observations from a re-analysis of the deposited data

How the results depend on the processing

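Of the values of single members under the alternatives, 95 kept their direction and their side of the threshold, 3 came past it and 2 reversed. Under a prior count of 0.5 and under deposited TPM with 0.1 added, the adjusted p of the main fit was kept, so that only the direction could change. DESeq2 called 3 that edgeR did not, Tgfb1 at a log2 ratio of 0.75, Tgfb2 at 1.24 and Tgfbr3 at -0.84, and over all genes it called 826 higher and 979 lower where edgeR called 0 of either (1326 higher and 1840 lower at a p under 0.05 without adjustment) and limma-voom 0. Without the replicate block, edgeR called 0 genes higher and 1 lower, and no member's call changed. With 1 animal left out Tgfb3 lay between -0.54 and 0.28 and Ltbp1 between -0.48 and 0.15, both highest without animal 3, and the cause was not tested. With a fold over 2, 0 members were higher in each animal, and over all genes 190 were higher and 299 lower. On the TPM scale 1 member, Smad3, lay below without overlap, as Tgfbr2 overlapped by a small margin.

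With 1 animal left out, genes over 1.5-fold in each animal numbered 587 to 1646 higher and 1060 to 1922 lower, members 1 to 3 higher and 0 to 1 lower, other pathway genes 9 to 25 higher and 1 to 6 lower, and response genes 4 to 17 higher and 1 to 2 lower. The TPM overlap and the left-out values of the lists and medians were chosen after seeing the data. The median over the members lay between -0.42 and 0.11. Tgfb1 and Tgfbr1 joined Tgfb2 without animal 1, and Tgfbr3 was then the lower member. With 3 animals the spread between animals, not the depth of the libraries, limits the precision.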
